A study of Mus musculus with 4 samples.

Results

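Ccl8, Ccl12, Ccl24, Cxcl13, Cxcl14 and Pf4 are 6 of the 32285 genes counted in single mouse lung macrophages, in 4 libraries of sorted cells, and all 6 encode chemokines. They were chosen by their UMI counts, which stood higher in interstitial macrophages (IM cells, which live in the lung's connective tissue) than in alveolar macrophages (AM cells, which live in the air spaces), so that contrast is described here and supports nothing. The libraries came from lungs of female FVB wildtype mice and of female MMTV-HER2 mice, which carry the HER2 oncogene under the promoter of mouse mammary tumour virus, a promoter active in mammary epithelium. Early mice were 16 weeks old and late mice were 32 weeks old. The labels describe the late stage by palpable tumours. Each of the 4 groups (wildtype and HER2, early and late) is 1 library. How many mice went into a library is not known here. There is therefore no replicate error: every interval below covers counting error at a 95% level only, and each comparison is between libraries. The intervals of levels and ratios take each UMI as a separate draw, so they leave out the spread between cells. Where few cells hold most of the UMIs of a gene, they are too narrow for that spread.

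Chemokines are small secreted proteins that bind to matrix and guide white blood cells along a gradient through receptors on those cells. Interstitial macrophages sit along vessels, nerves and airways and fall broadly into tissue-resident cells that carry scavenger and lectin receptors (Lyve1, Folr2, Mrc1, Cd209f) and antigen-presenting cells rich in MHC class II. Ccl8 and Ccl12 are monocyte-attracting CC chemokines, and Ccl12 acts through Ccr2. Ccl24 is eotaxin-2, a ligand of Ccr3 on eosinophils. Cxcl13 draws B cells through Cxcr5 and organises lymphoid follicles. Cxcl14 is a conserved epithelial and stromal chemokine whose receptor is debated. Pf4 (Cxcl4), the platelet factor stored in platelet granules, is also made by tissue macrophages.

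A cell was kept with 1000 or more UMIs (molecules counted once each), 500 or more genes and a mitochondrial share of no more than 10%, which left 22258 cells. IM cells had 5 or more UMIs of the complement genes C1qa, C1qb and C1qc and more of these than of 6 alveolar genes. There were 330 in wildtype and 455 in HER2 early, and 633 in wildtype and 661 in HER2 late, or 2079 in all, with median depths of 6440, 4502, 3219 and 5234 UMIs. AM cells numbered 19193 and other cells 986. The IM label held against a marker that the rule did not use: Csf1r, the receptor for the macrophage growth factor, stood at 748 to 1019 CPM in IM cells, against 71.9 to 79.5 in AM cells. The 8 cells just outside the rule (3 to 4 C1q UMIs) held 6 Ccl12 and 3 Pf4 UMIs together, and the 16 just inside (5 to 6 C1q UMIs) held 2 Ccl8, 1 Cxcl14 and 17 Pf4 UMIs. Of all kept barcodes, 49 occurred in more than 1 library, and none of these was an IM cell in more than 1 of them.

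The wildtype early library stood apart. Its IM cells held 1659 CPM of a T cell list (Cd3d, Cd3e, Cd3g, Trac, Trbc2, Lck), against 198, 133 and 52.3 in HER2 early, wildtype late and HER2 late, and none of the 6 genes was at 0 in any library. In it, 132 of 330 IM cells held 3 or more such UMIs (21, 30 and 16 IM cells in the other 3 libraries), 34 held 3 or more cell cycle UMIs and 36 held 5 or more UMIs of the adhesion gene Vcam1 (7, 6 and 7 elsewhere). The comparisons were repeated with each of these 3 kinds of cell left out of every library, a choice made after seeing the data, and values that moved most are given beside the results. Leaving out the cells with cell cycle UMIs added no call of a member at the early stage and added Ccl24 (log2 -0.71) in wildtype late against early.

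Levels are in CPM, the share of a gene among all UMIs of its cell class on the usual counts-per-million scale. UMIs count the 3′ ends of transcripts and were not divided by gene length, so levels are compared between libraries and classes and not between genes. Low-UMI barcodes (10 to 100 UMIs, mostly empty droplets) are given beside them as a measure of free RNA.

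**Figure D1:**
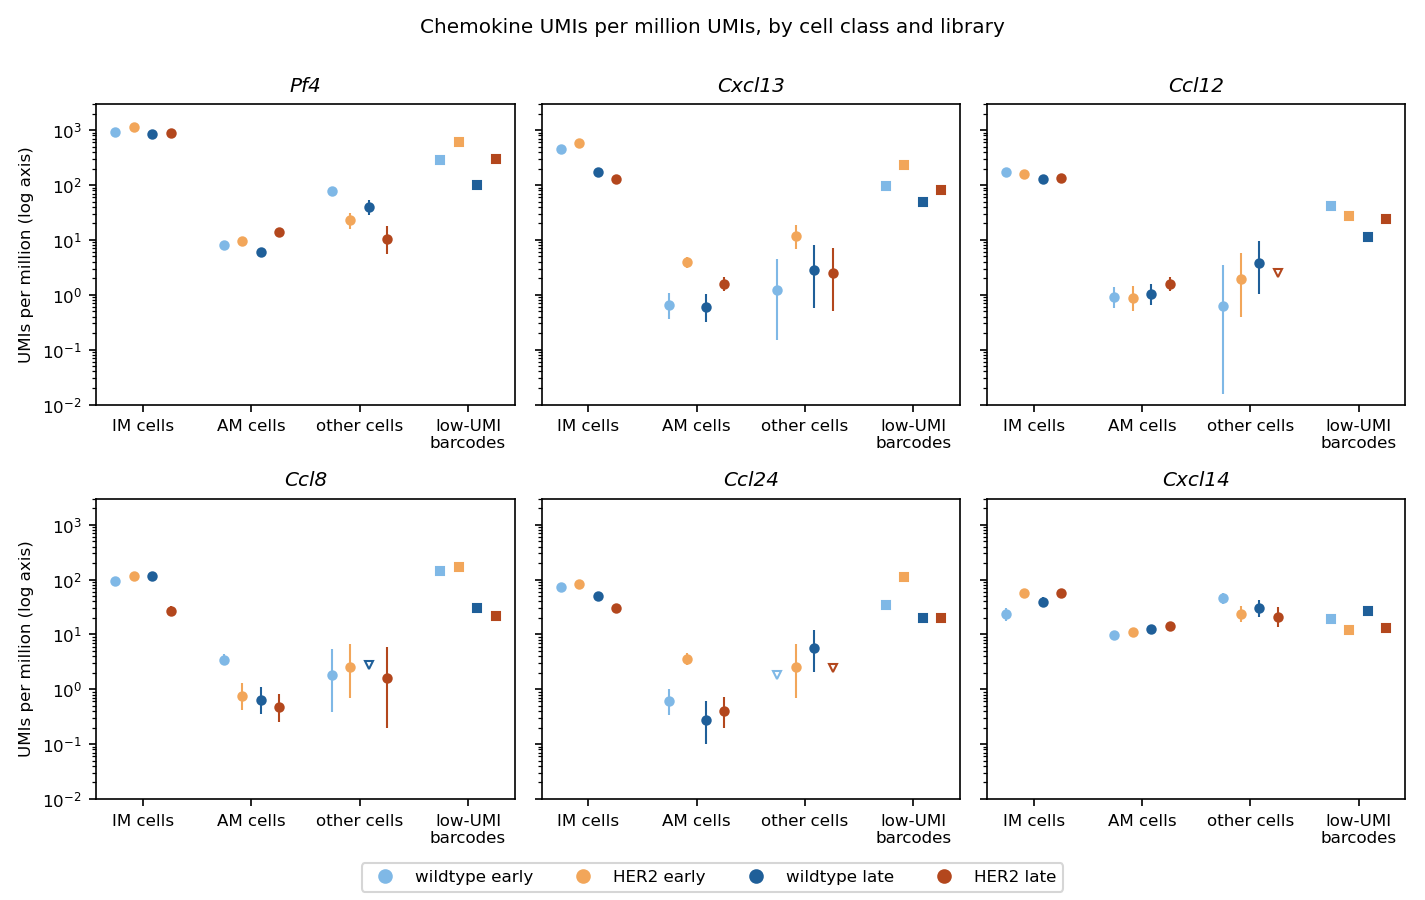
CPM of each chemokine (log axis) in IM cells, AM cells, other cells and low-UMI barcodes, 1 point per library with its exact Poisson 95% interval (none drawn for low-UMI barcodes); open triangles mark a count of 0 at its limit of 3 counts. Pf4 in IM cells lies between 855 and 1154 in every library, while Cxcl14 in IM cells lies between 23.4 and 57.8 and its AM points lie at 9.58 to 14.0.

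Ccl12 and Ccl8 are neighbours on chromosome 11 (GRCm38, plus strand), at chr11:82101845-82103400 and chr11:82115185-82116799, with 11784 bases between them. Ccl2 (chr11:82035571-82037453) and Ccl7 (chr11:82045712-82047525) lie in the same cluster. Pf4 (chr5:90772435-90773383, plus strand), Cxcl13 (chr5:95956951-95961068, plus strand) and Ccl24 (chr5:135569937-135573049, minus strand) are on chromosome 5, and Cxcl14 (chr13:56288643-56296551, minus strand) is on chromosome 13. All are protein-coding genes of 3 or 4 exons. The last 300 bases of their longest transcripts, which such a library reads, matched no other annotated gene over 90 or more bases at 95% identity. The 250 bases before the start of 3 members are shown. Ccl12 and Ccl8 sit side by side, but the 5 genes most like each were different. Ccl12 was still found more often in IM cells with Ccl8 than in those without. Cxcl14 was the member spread thinly over all classes. The sequences are from RefSeq (GRCm38.p6), 5′ to 3′, with capitals marking TATAAA (the TATA box, given strand only) and GAGGAA (the core bound by PU.1, a macrophage factor, on either strand).
Ccl12, chr11:82101595-82101844, plus strand: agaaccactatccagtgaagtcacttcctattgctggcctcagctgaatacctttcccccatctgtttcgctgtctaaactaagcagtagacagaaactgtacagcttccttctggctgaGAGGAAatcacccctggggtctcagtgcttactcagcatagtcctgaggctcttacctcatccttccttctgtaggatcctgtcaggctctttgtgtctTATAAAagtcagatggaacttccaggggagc
Ccl8, chr11:82114935-82115184, plus strand: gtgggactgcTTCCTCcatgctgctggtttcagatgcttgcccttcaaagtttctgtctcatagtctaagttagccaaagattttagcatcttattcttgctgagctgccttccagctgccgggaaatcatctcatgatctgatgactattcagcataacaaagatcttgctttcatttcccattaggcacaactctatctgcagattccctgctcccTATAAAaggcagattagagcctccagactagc
Cxcl14, chr13:56296552-56296801, minus strand: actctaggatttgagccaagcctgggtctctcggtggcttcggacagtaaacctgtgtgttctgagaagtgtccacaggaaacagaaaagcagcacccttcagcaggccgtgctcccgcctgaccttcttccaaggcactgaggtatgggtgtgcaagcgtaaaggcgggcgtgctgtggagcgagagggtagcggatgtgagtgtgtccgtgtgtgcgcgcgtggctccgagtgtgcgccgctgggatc
RefSeq promoters matched 5 of the 6 members. Ccl24 had no entry. TATAAA lay 31 bases before the start of Ccl12 (counted from its first base), 32 before Ccl8 and 46 before Cxcl13, and it was in neither the Pf4 nor the Cxcl14 window; 7.59% of 32851 promoter windows of this length hold it. GAGGAA was in the Ccl12, Ccl8 and Pf4 windows (23.3% of all windows). Neither the AP-1 site nor the NF-kB consensus (either strand) was in any of the 5 windows, against 6.75% and 7.25% of all windows. The Cxcl14 window held 16 CG pairs and the other 4 held 1 or 2 (median over all windows 6). These matches describe letters and not binding.

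Pf4 was the member found in most IM cells. Its level was 916 CPM in wildtype and 1154 in HER2 early, and 855 in wildtype and 887 in HER2 late. The highest was HER2 early, and the other 3 lay close together. With each cell thinned to 2000 UMIs, 51.7 to 60.3% of IM cells held a Pf4 UMI, against 0.761 to 1.44% of AM cells, which were read at median depths of 3728 to 4752 UMIs before thinning. The richest 27 to 62 IM cells of a library were needed to reach 50% of its Pf4 UMIs, and the 3 richest held 7.73 to 9.87%. Platelet genes were near 0 in the same cells: the platelet list (Ppbp, Itga2b, Gp9, Gp1bb, Gp1ba, Itgb3) summed to 2.59 to 8.84 CPM in IM cells, with Gp1ba at 0 in all 4 libraries and Gp9 and Gp1bb at 0 in 3 of them. In other cells it reached 75.6 in wildtype early, where 13 other cells held 127 Pf4 UMIs. Of these UMIs, 64 and 48 lay in 2 cells with the platelet list as their leading list. Low-UMI barcodes held Pf4 at 101 to 605 CPM.

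Cxcl13 was the member with the most extreme single cells. Its level in IM cells was 446 in wildtype and 595 in HER2 early, and 175 in wildtype and 131 in HER2 late. Both early libraries stood above both late ones. Only 45, 69, 47 and 43 IM cells held a UMI of it, and the 3 richest held 41.8%, 27.4%, 46.5% and 50.3% of its IM UMIs. The richest cell of each library held 187, 146, 83 and 134 Cxcl13 UMIs, and among the 3 richest of every library Cxcl13 made up 0.975 to 4.65% of all UMIs of the cell. These 12 cells were not unusually deep: their median depth was 1.06 times the IM median of their library, and each held at least 38 C1q UMIs. Low-UMI barcodes held Cxcl13 at 49.1 to 233 CPM.

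Ccl12 ranged least among the CC members. Its level was 175 in wildtype and 160 in HER2 early, and 131 in wildtype and 132 in HER2 late, held by 74, 91, 101 and 118 IM cells. The early libraries were higher than the late ones, by little. The wildtype early value rested on the Vcam1-rich cells: these 36 cells held 253 of its 433 Ccl12 UMIs (58.4%), and without them the level was 88.8. Without the cells with T cell UMIs it was 242, since those held 90.5 CPM of it. In the other 3 libraries the few Vcam1-rich cells held 6.18 to 7.74% of the Ccl12 UMIs. The richest Ccl12 cell of wildtype early held 66 Ccl12 and 28 Vcam1 UMIs and no UMI of any other member.

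Ccl8 was rare and concentrated in every library. Its level was 94.7 in wildtype and 118 in HER2 early, and 115 in wildtype and 26.6 in HER2 late. HER2 late was alone at the bottom. The UMIs sat in 40, 37, 40 and 28 IM cells, and the 3 richest cells held 42.6%, 47.8%, 49.0% and 53.4% of them. The richest cell held 45, 77, 53 and 19 UMIs. Low-UMI barcodes held Ccl8 at 144 and 169 CPM in the early libraries, above the IM level there, and at 29.9 and 21.5 in the late ones. Ccl8 in AM cells stood at 3.46 in wildtype early, where 1 AM cell with 48 C1q UMIs held 51 of 79 UMIs, and at 0.471 to 0.768 elsewhere.

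Ccl24 was likewise held by few IM cells. Its level was 73.8 in wildtype and 81.5 in HER2 early, and 50.4 in wildtype and 30.0 in HER2 late. Both early libraries were above both late ones. Its holders numbered 35, 46, 33 and 26 IM cells, with 31.1%, 19.6%, 38.6% and 46.6% of the UMIs in the 3 richest. In wildtype early, 110 of 183 Ccl24 UMIs lay in the cells with T cell UMIs, and without those the level was 53.1. Low-UMI barcodes held Ccl24 at 113 CPM in HER2 early, above the IM level there, and at 19.8 to 33.7 in the other 3 libraries.

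Cxcl14 went against the name of the group. Its level in IM cells was 23.4 in wildtype and 57.8 in HER2 early, and 39.3 in wildtype and 55.9 in HER2 late. Both HER2 libraries were above both wildtype ones. Yet 61.8% of its UMIs lay in AM cells, 28.4% in IM cells and 9.73% in other cells, with AM cells making up 19193 of the 22258 cells; in AM cells its level was 9.58 to 14.0, and in low-UMI barcodes 12.2 to 26.7. No IM cell held more than 6 of its UMIs, and its UMIs were spread over 38, 81, 66 and 143 IM cells. After thinning, 5.88 to 9.93% of IM cells held it, against 1.88 to 2.48% of AM cells and 1.19 to 2.35% of other cells. Of the 10 other cells with 5 or more Cxcl14 UMIs, 9 had the fibroblast list (Col1a1, Col1a2, Col3a1, Dcn, Pdgfra, Lum) as their leading list, with up to 37 Cxcl14 UMIs in 1 cell. IM cells with a Cxcl14 UMI held 1.16 to 37.0 times as much of this list as those without, over the libraries. The list stood at 283 against 7.66 CPM in wildtype early, and the part of fibroblast RNA in Cxcl14 of IM cells was not tested. In the authors' deposited table of averages over AM cells, scaled to CPM, Cxcl14 stood at 8.05, 10.9, 12.5 and 13.3 in the same order of libraries, and the other members stood at 0.116 to 12.7.

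**Figure D2:**
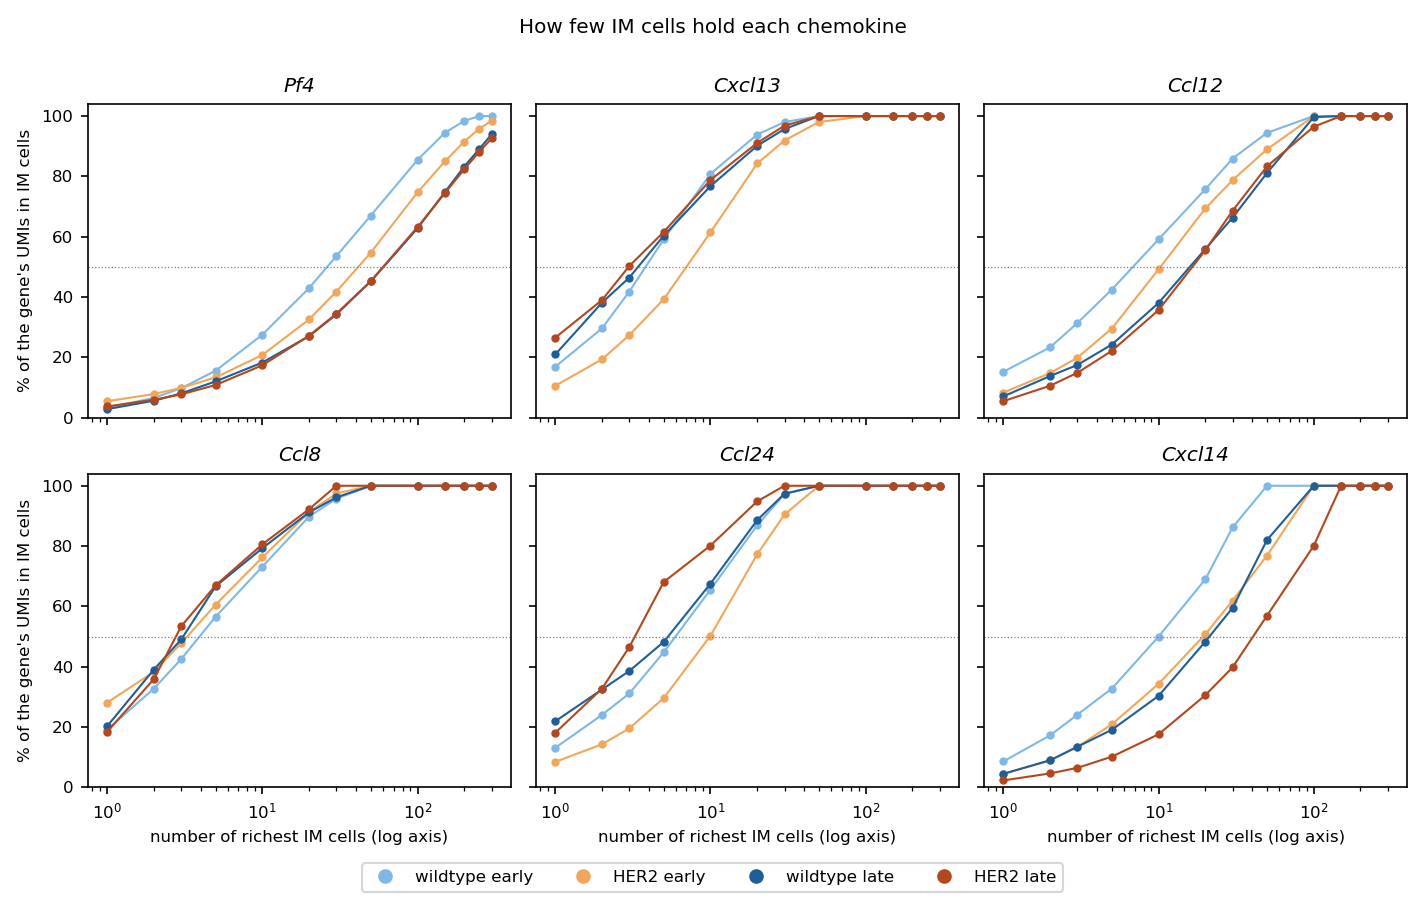
Share of each chemokine's UMIs in IM cells held by the richest 1 to 300 IM cells (log axis), 1 line per library; the dotted line marks 50%. Ccl8 and Cxcl13 pass 50% within 3 to 8 cells in every library, and Pf4 needs 27 to 62.

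All 6 members were called higher in IM than in AM cells in each of the 4 libraries, the contrast for which they were picked. Called means a ratio of at least 1.5 with an interval that leaves out 1, counting only genes that reached 20 CPM in one of the groups compared. Of all genes tested, 33.5%, 28.2%, 25.7% and 26.5% were called higher in IM cells in wildtype and HER2 early, then wildtype and HER2 late. The ratio for Cxcl14 was 2.44 to 5.24, and for the other 5 it ran from 22.5 (Ccl24, HER2 early) to 680 (Cxcl13, wildtype early). AM cells rich in a member mostly held C1q as well: of 32 AM cells with 5 or more Pf4 UMIs 31 held 5 or more C1q UMIs, as did 4 of 4 such cells for Ccl12, 6 of 6 for Ccl24, 8 of 8 for Cxcl13 and the 1 for Ccl8, but neither of the 2 for Cxcl14. Over all AM cells 0.455 to 1.44% held that many.

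The first design question was how the HER2 library differed from the wildtype one at the early stage. There, 1 of 6 members was called, Cxcl14, which was 2.47-fold higher in HER2 early (log2 1.31, interval 0.85 to 1.78, 134 against 58 UMIs). Of 6330 genes tested 14.3% were called, and 3.18% were called higher. Pf4 (log2 0.33), Cxcl13 (0.42) and Ccl8 (0.32) were above 0 with intervals that left out 0 but below the 1.5-fold needed, while Ccl24 (0.14) and Ccl12 (-0.12) had intervals that held 0. The members' median was 0.33 beside -0.10 over all genes tested. Cxcl14 stayed called without the cells with T cell UMIs (log2 0.90). Cxcl13 moved with the cells counted: it was called (0.73) without the 3 richest cells of each library and stood at 0.16 without the cells with T cell UMIs. Ccl12 depended on which cells of wildtype early were counted: its log2 ratio was 0.79 without the Vcam1-rich cells, a call, and -0.54 without the cells with T cell UMIs. Ccl8 was called higher (0.64) without the latter.

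At the late stage, 2 of 6 members were called, both lower in HER2, against 11.8% of 6084 genes called and 9.11% called lower. Ccl8 was 4.33-fold lower in HER2 late than in wildtype late (log2 -2.11, interval -2.46 to -1.78, 103 against 261 UMIs). Those UMIs lay in 28 and 40 IM cells, and the interval does not cover the spread between these cells. Ccl24 was 1.68-fold lower (log2 -0.75, interval -1.13 to -0.36). Cxcl13 (log2 -0.42) and Cxcl14 (0.51) had intervals without 0 and were not called, and Pf4 (0.05) and Ccl12 (0.01) had intervals that held 0. Both of the former passed 1.5-fold under another choice of cells. Cxcl13 stood at -0.60 without the Vcam1-rich cells. Cxcl14 stood at 0.72 with only IM cells whose alveolar genes summed to under 0.1% of UMIs. The median was -0.21 for the members and -0.14 for all genes. No library with excess T cell UMIs entered this comparison. The ratio of Ccl8 ranged from log2 -2.36 to -1.87 over 14 other ways of selecting or counting the cells. Without the 3 richest cells of each library it was -2.24. The 10 richest IM cells held 79.3% of the Ccl8 IM UMIs in wildtype late and 80.6% in HER2 late. Leaving out 3 therefore cannot decide whether the ratio rests on few cells. Other markers did differ: IM cells of wildtype late held 182 CPM of the plasma cell list and 186 of the neutrophil list, against 1.55 and 107 in HER2 late, and their part in the result was not tested.

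Between stages in wildtype, Cxcl13 was 2.55-fold lower late than early (log2 -1.35, interval -1.52 to -1.18) and Cxcl14 was 1.68-fold higher (log2 0.75, interval 0.26 to 1.253). In this comparison 24.3% of 6526 genes were called, with 14.0% lower late and 10.3% higher, so 2 of 6 members is not far from the background. Without the cells with T cell UMIs of each library Cxcl13 stood at -1.62, Cxcl14 at 0.23 and Ccl24, which had been at -0.55, at -0.0025. Ccl24 moved further below 0 under other choices. It stood at -0.73 without the 3 richest cells of each library. Without the Vcam1-rich cells it stood at 50.5 CPM late against 82.4 early. Ccl12 went from -0.41 to 0.47 without the Vcam1-rich cells, and to -0.81, a call, without the cells with T cell UMIs. Ccl8 (0.28) and Pf4 (-0.10) were not called.

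Between stages in HER2, 3 of 6 members were called and all 3 were lower late, against 5.35% of 5888 genes called and 3.74% called lower. Cxcl13 was 4.56-fold lower (log2 -2.19, interval -2.34 to -2.04), Ccl8 4.44-fold lower (log2 -2.15, interval -2.49 to -1.82) and Ccl24 2.72-fold lower (log2 -1.44, interval -1.79 to -1.10). Ccl12 (-0.28) and Pf4 (-0.38) were lower with intervals that left out 0 and short of 1.5-fold, and Cxcl14 (-0.05) had an interval that held 0. The members' median was -0.91 and that of all genes -0.05. The calls of Ccl8, Ccl24 and Cxcl13 share their HER2 late library with the calls between genotypes, so the pairs of values are not separate evidence.

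Over all 4 pairings of a late with an early library, Cxcl13 was lower late by at least 2.55-fold, Ccl24 by at least 1.46-fold, Ccl12 by at least 1.22-fold and Pf4 by at least 1.03-fold. Of 6661 genes 24.5% were lower late in all 4 pairings by any amount, and 1.26% by 1.5-fold or more, a group that held Cxcl13. For Ccl12 this rested on the Vcam1-rich cells, since wildtype early stood at 88.8 CPM without them, below HER2 late at 125 and wildtype late at 123 counted the same way. Cxcl14 was the only member without overlap between genotypes, higher in HER2 by at least 1.42-fold, where 8.35% of genes were higher in all 4 pairings by any amount. For Ccl24 only the wildtype pair lost its difference without the cells with T cell UMIs, at 53.1 CPM early and 53.0 late. HER2 early stood at 79.1 and HER2 late at 31.0 counted that way. Ccl8 overlapped in both splits, since 1 library alone was low.

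**Figure D3:**
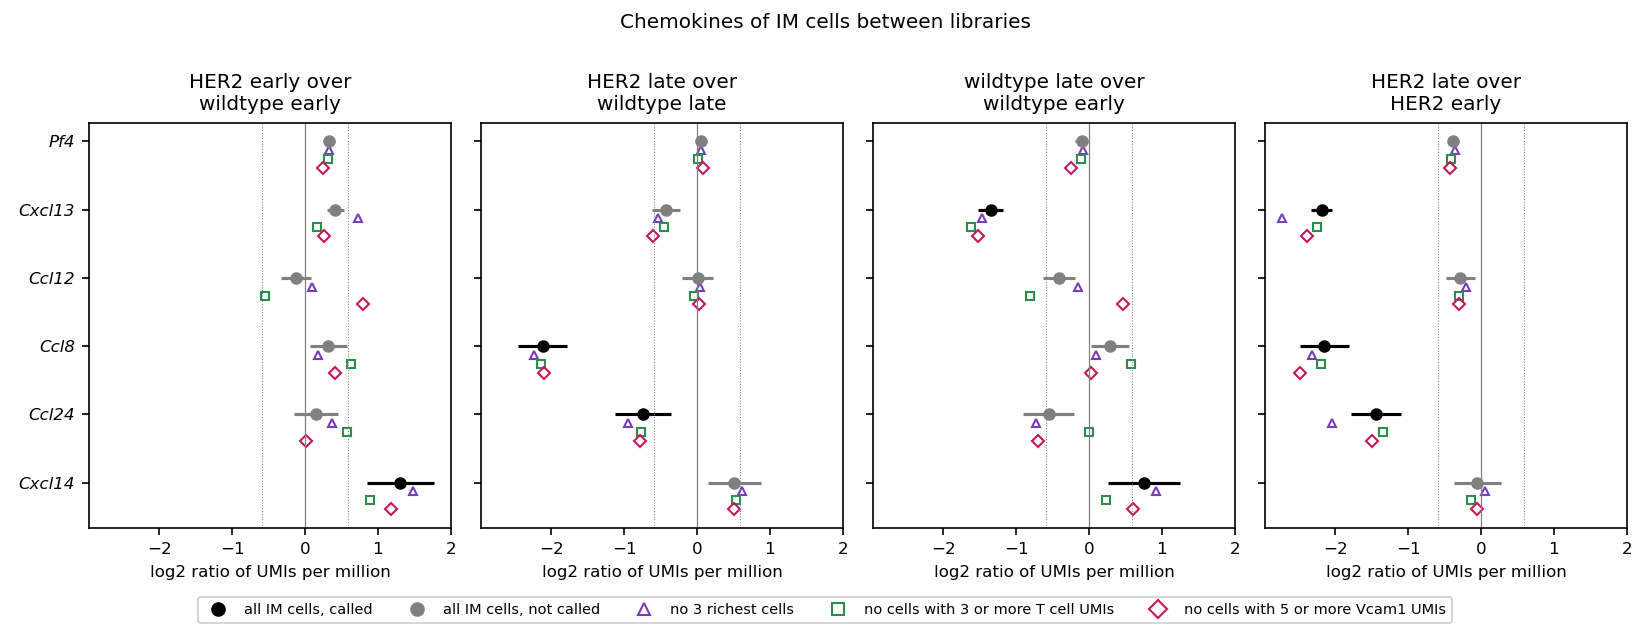
log2 ratio of CPM in IM cells for the 4 comparisons; filled points with exact 95% counting intervals use all IM cells (black where called) and open markers leave out the 3 richest cells, cells with 3 or more T cell UMIs or cells with 5 or more Vcam1 UMIs. Ccl8 lies at -2.11 and -2.15 in the comparisons that hold HER2 late, while Ccl12 changes sign with the cells counted in both comparisons that hold wildtype early.

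The members split by the kind of IM cell that held them. A list of 15 genes of the tissue-resident side (among them the hyaluronan receptor Lyve1, the folate receptor Folr2 and the lectin Cd209f) was 4.32 to 4.77 times as high in IM cells with a Ccl24 UMI as in those without, and 3.24 to 3.68 times for Ccl8, in each case over the 4 libraries. The ratio was 1.59 to 3.25 for Pf4, 1.62 to 2.56 for Cxcl13 and 0.962 to 1.23 for Ccl12. For Cxcl14 it was 0.542 to 0.625, below 1 in each library. A list of 12 genes of the antigen-presenting side (MHC class II genes, Cd74, Ccr2, Cx3cr1 and others) stood at 0.202 to 0.484 for Ccl24, 0.544 to 0.709 for Ccl8, 0.488 to 0.732 for Cxcl13, 0.679 to 0.874 for Pf4, 0.86 to 0.89 for Ccl12 and 0.941 to 1.06 for Cxcl14. Cells with a member were often deeper than those without (Ccl24 in wildtype early, 8404 against 6269 UMIs at the median), and the part of depth in these ratios was not tested.

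**Figure D4:**
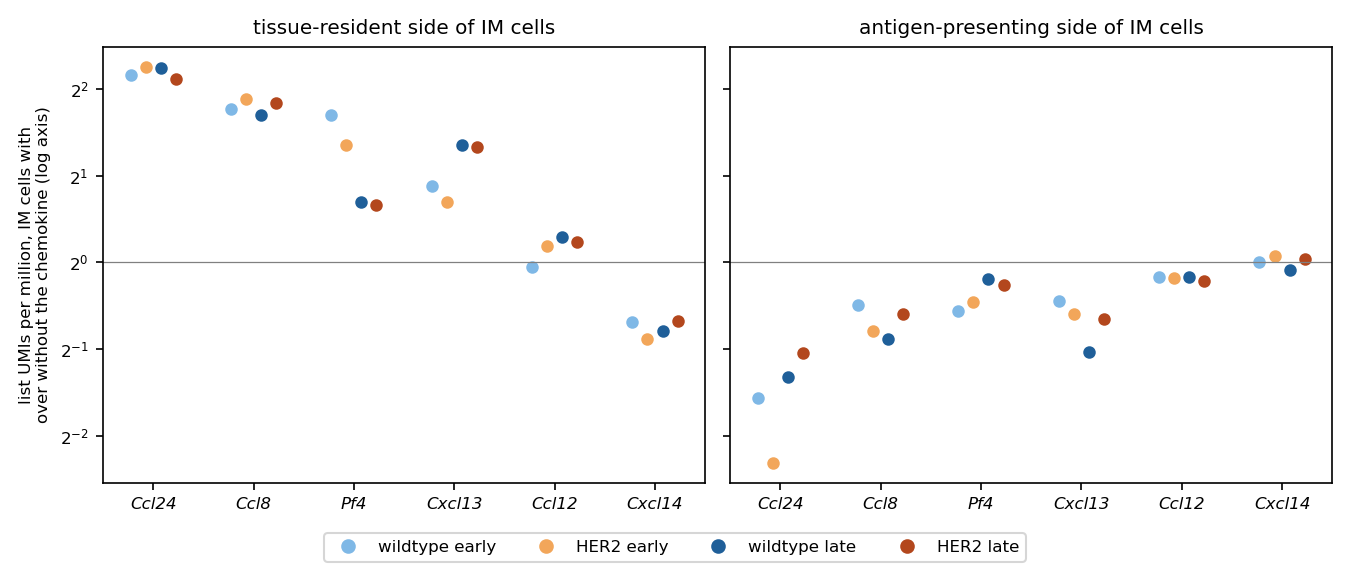
Summed CPM of the tissue-resident list and the antigen-presenting list in IM cells with a UMI of the chemokine over those without (log axis), 1 point per library. For Ccl24 and Ccl8 every point of the tissue-resident list lies at 3.24 or more and every point of the antigen-presenting list at 0.709 or less, and for Cxcl14 the tissue-resident points lie at 0.542 to 0.625.

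The genes most like each member were ranked by the smallest, over the 4 libraries, of the ratio between IM cells with and without a UMI of it (10 CPM added to each level), among 8012 genes. Ccl8 led with the lectins Cd209f (12.0 to 38.2), Cd209b (7.19 to 26.6) and Cd209g (6.96 to 24.9), then the protease Mmp9 (6.42 to 11.1) and the haemoglobin scavenger Cd163 (6.19 to 9.47). Ccl24 led with histidine ammonia-lyase Hal (19.0 to 35.2), Lyve1 (18.9 to 55.4), the secreted factor Retnla (17.5 to 763), the ficolin Fcna (16.2 to 60.2) and the endothelin receptor Ednrb (15.0 to 31.0). All 5 genes of each list came back with cells of 2 or more UMIs as the holders.

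For Ccl12 the list was led by its cluster neighbours Ccl7 (3.21 to 6.18) and Ccl2 (2.31 to 5.77), both Ccr2 ligands, and went on with the copper carrier Cp, Vcam1 and the mitochondrial chaperone Clpb; 4 of 5 came back with 2 or more UMIs. Ccl8, which lies in the same cluster and closer to Ccl12 than Ccl7 does, was not among its 5. For Cxcl13 the list was Mmp9 (6.66 to 10.6), the complement receptor Vsig4, the actin bundler Fscn1, the phospholipase Pla2g2d and Ninj1, with 4 of 5 coming back. Pf4 was led by Mmp9 (7.07 to 10.8), Ccl8 (4.60 to 13.9), Cd209f, Lyve1 and the clotting factor F13a1, all of which came back. Cxcl14's 5 (the matrix genes Prelp, Col4a1 and Sparcl1, then Crip2 and Fxyd1) had smallest ratios of 1.47 to 1.63, and none came back.

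The members were also shared unevenly among cells. With each IM cell thinned to 2000 UMIs, which left out 161 shallower cells, a Ccl24 UMI was found in 36.2% of 94 cells with Ccl8 and in 2.96% of 1824 without, and in all 4 libraries the share was higher with Ccl8. Ccl8 was found in 38.6% of 88 cells with Ccl24 and 3.28% of those without. Pf4 was in 92.0% of cells with Ccl24, 86.8% of those with Cxcl13 and 83.0% of those with Ccl8, against 53.6 to 54.9% of the cells without the member in question. Cxcl13 was in 25.5% of Ccl8 cells and 7.02% of the rest, higher in all 4 libraries. The gap was small in HER2 early (16.0 against 12.5%) and wide in wildtype late (35.7 against 4.17%). Ccl12 was in 22.3% of Ccl8 cells and 11.6% of the rest, higher in 3 of 4 libraries, and in 11.4% of Ccl24 cells and 12.2% of the rest. Cxcl14 was in 2.13% of Ccl8 cells and 8.44% of the rest, but the thinned HER2 late value rested on 1 of 16 cells, and without thinning Cxcl14 there was in 7 of 28 Ccl8 cells (25.0%) and 21.5% of the rest. Without thinning, Ccl24 was in 34.5% of Ccl8 cells and 4.65% of the rest. Ccl12 was then in 35.2% of Ccl8 cells and 17.2% of the rest, higher in all 4 libraries.

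**Figure D5:**
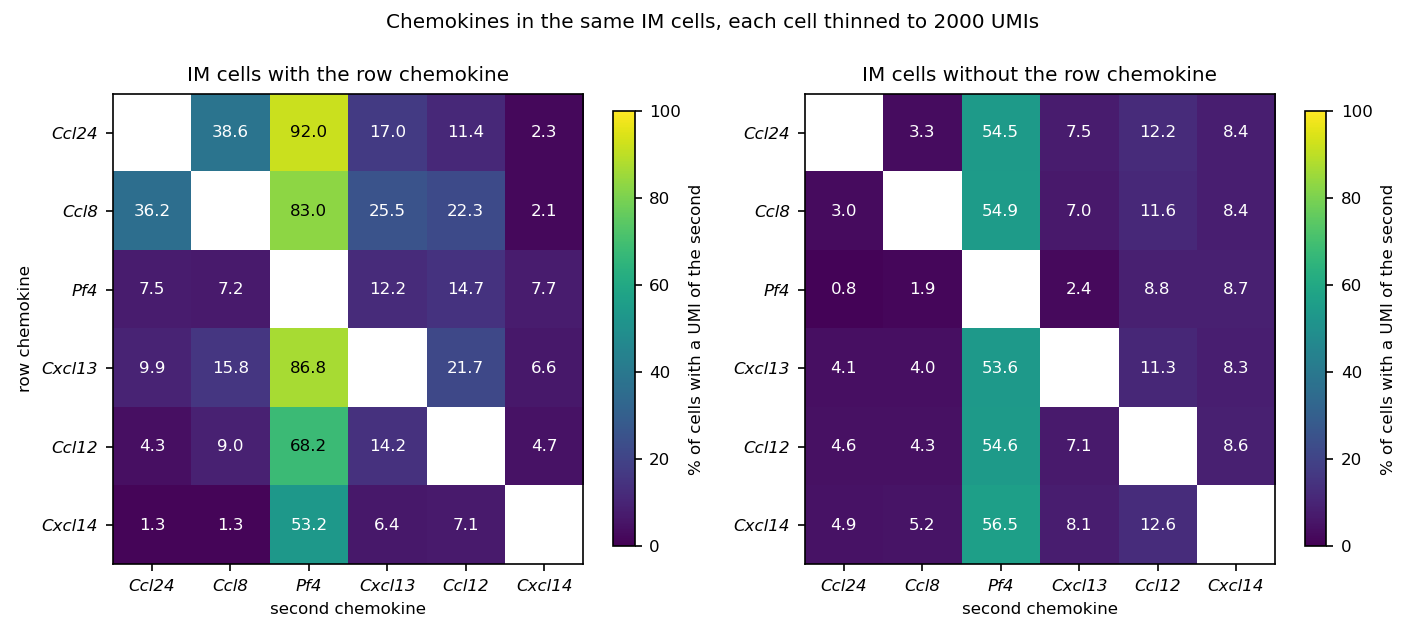
Percent of IM cells with a UMI of a second chemokine (columns) among cells with (left) and without (right) the row chemokine, over the 4 libraries, each cell thinned to 2000 UMIs. The Ccl24 and Ccl8 cells share each other at 36.2 and 38.6% against 2.96 and 3.28%, and the Cxcl14 column stays at 8.70% or less in both panels.

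Single cells give examples. The cell with the most Pf4 in HER2 early (146 of 7979 UMIs) also held 49 Cxcl13 and 13 Ccl8 UMIs, and the cell with the most Ccl24 in HER2 late (21 UMIs) held 22 Ccl12, 7 Cxcl13 and 31 Pf4 UMIs. The cell with the most Cxcl13 in wildtype early (187 of 7299 UMIs) held 5 Ccl12 UMIs and no other member. Among the 10 richest cells of each library, Ccl8 and Pf4 shared 14 of 40, Ccl24 and Pf4 10 of 40, Ccl8 and Ccl24 8 of 40, and Ccl8 and Cxcl14 0 of 40. No IM cell held all 6 members, 14, 14, 11 and 10 cells held 4 or more, and 17.6%, 17.4%, 25.9% and 19.7% of IM cells held none, in the order wildtype and HER2 early, then wildtype and HER2 late. These shares were not thinned, and wildtype late was the shallowest library.

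The tissue-resident genes moved in the comparisons where Ccl8 and Ccl24 were called. In HER2 late against wildtype late 10 of 14 tested were called lower and none higher (median log2 -0.72), where 9.11% of all genes were called lower, among them the ficolin Fcna (35.4 against 86.2 CPM), Cd209f (26.1 against 52.1) and Folr2 (34.7 against 68.0). In HER2 late against HER2 early 10 of 15 were called lower (median -1.10), beside 3.74% of all genes, with Cd209f at 26.1 against 108, Folr2 at 34.7 against 136 and Lyve1 at 33.4 against 127. Selenop, a selenium carrier on the same list, was not called in either and stood at 1247 to 1721 over the 4 libraries. In wildtype late against early 6 of 15 were called lower and 1 higher (Stab1), beside 14.0% and 10.3% of all genes. Without the cells with T cell UMIs this became 3 lower and 3 higher, beside 9.54% and 14.3%. In HER2 early against wildtype early 1 was called lower (Timd4), where 11.1% of all genes were called lower; without the cells with T cell UMIs 3 were called higher (Cd163, Gas6, Cd209f), beside 4.54%. The antigen-presenting list had 1 of 12 called higher in 3 of the comparisons, beside 1.61 to 3.18% of all genes, such as H2-Aa in HER2 late (9278 against 5557 in wildtype late). In wildtype late against early 4 of 12 were called higher, beside 10.3% of all genes. Without the Vcam1-rich cells 2 of 12 were called higher, beside 9.78% of all genes. Whether fewer cells of a kind or less RNA in each cell set a lower summed level cannot be told apart from the sums alone. After thinning, the cells with a Ccl8 UMI numbered 16 of 630 in HER2 late (2.54%, interval 1.46 to 4.09). In wildtype late they numbered 28 of 532 (5.26%, interval 3.53 to 7.52), and the intervals overlap. Without thinning they numbered 28 of 661 and 40 of 633.

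Among the other chemokines, several were called higher where members were called lower. Of 31 listed, 30 were in the files and 8 or 9 were tested in a comparison. In HER2 late against wildtype late, where 2.73% of all genes were called higher, 4 of 9 were called higher and none lower: Ccl3 (41.4 against 10.6 CPM) and Ccl4 (51.2 against 13.7), both inflammatory CC chemokines, Ccl2 (29.0 against 19.0) and the neutrophil attractant Cxcl2 (67.0 against 37.1). Ccl2 was not called with any of the 3 kinds of cell left out. In HER2 late against HER2 early Ccl3, Ccl4 and Cxcl2 were called higher and none of 9 lower, beside 1.61% of all genes called higher; without the cells with T cell UMIs Cxcl2 was not called and Ccl5 was called lower, as it was without the Vcam1-rich cells. At the early stage 3 of 9 were called higher in HER2 (Ccl3, Ccl5, Ccl7) and 2 lower, among them Cxcl9, which interferon induces and which draws T cells, with 0.863 against 98.0, of which 190 of 243 UMIs lay in the Vcam1-rich cells of wildtype early. Of all genes 3.18% were called higher there and 11.1% lower. Without the cells with T cell UMIs Ccl3 was not called. In wildtype late against early 3 of 8 were called higher (Ccl5, Ccl7, Cxcl16) and 3 lower (Ccl2, Cxcl2, Cxcl9). The shares of all genes were 10.3% higher and 14.0% lower. Without the cells with T cell UMIs 2 of 9 were called higher and 5 lower, beside 14.3% and 9.54% of all genes. Ccl6 was the contrast by cell class, at 281 to 438 in IM cells and 3821 to 4712 in AM cells.

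Ccr3, Cxcr5 and Ccr8, receptors of members, were at or near 0 in the sorted cells. No receptor of Pf4 or Cxcl14 is described here. The 23 chemokine receptors listed summed to 1100 to 1254 CPM in IM cells. Ccr3, the receptor of Ccl24, had 1 UMI in IM cells and none in AM or other cells over the 4 libraries. Cxcr5, the receptor of Cxcl13, stood at 0 to 1.73 CPM in IM cells and 2.45 to 5.81 in other cells. Ccr8, a receptor of mouse Ccl8, had 2 UMIs in IM cells and none elsewhere. Ccr2, the receptor of Ccl12, was the exception, at 126, 221, 278 and 271 in IM cells of wildtype and HER2 early, then wildtype and HER2 late and at 0.875 to 3.26 in AM cells.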

How the data were processed

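Single-cell libraries were made with a droplet 3′ assay from sorted lung macrophages. Per the submitters' processing notes reads were processed with Cell Ranger 5.0.1 on mm10, while the file header names version 4. The deposited matrices hold UMI counts for every barcode, with no cell filter. The authors also deposited a table of the average signal over AM cells, scaled here to CPM; how those cells were chosen was not stated. UMIs were summed per library and class with Python 3.11.15, numpy 2.4.6, scipy 1.17.1, pandas 2.3.3 and matplotlib 3.10.9. AM cells had 0.4% or more of UMIs in Chil3, Ear1, Ear2, Fabp1, Lpl and Plet1, and more of them than of C1q. No doublet caller was run. The mitochondrial limit removed 12.8 to 21.0% of barcodes, and library totals were 28786682 to 39228655 UMIs. Levels have exact Poisson intervals, ratios exact conditional binomial ones. With 1 library per group no test was made. The procedure was run on simulated summed counts that held counting error only. Those counts had no spread between cells, so the run cannot show how the intervals do where few cells hold the UMIs. Members and lists were chosen with earlier results of these data known. Named genes were the members, the 5 genes most like each, and genes of the fixed lists that were called or stood high. For symbols with several IDs the first was used.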

Additional observations from a re-analysis of the deposited data

Results flagged for a closer look

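In all, 3 values stood out because the libraries of one group moved opposite to those of the other; with 1 library per group none of these differences was tested. The log2 ratio of Ccl8 in HER2 over wildtype IM cells was 0.32 early and -2.11 late, a difference of 2.43. The same 4 libraries taken the other way gave Ccl8 late over early at 0.28 in wildtype and -2.15 in HER2, again a difference of 2.43, which is the same number by construction. The log2 ratio of Cxcl13 in HER2 over wildtype was 0.42 early and -0.42 late, a difference of 0.84; the early value was 0.73 without the 3 richest cells of each library and 0.16 without the cells with T cell UMIs.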

How the results depend on the processing

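The members were recounted under 14 other choices of cells and scaling, and the counts of calls also at a looser fold limit and with no filter on level. The number of members called in HER2 against wildtype early went from 1 to 2 with a 20% mitochondrial limit and without the 3 richest cells. In alternatives chosen after seeing the data it was also 2 without IM cells with 3 T cell UMIs and without those with 5 Vcam1 UMIs. Of all genes 14.3% were called with all IM cells, 10.4% without the former and 14.6% without the latter. The number of members was 3 at the looser fold limit. In HER2 against wildtype late it went from 2 to 4 at the looser fold limit. In wildtype late against early it went from 2 to 1 with cells thinned to 2000 UMIs and to 4 at the looser fold limit. The share of all genes called was counted only for all IM cells and for the 3 kinds of cell left out. The other counts of members, those at the looser fold limit included, therefore have no background beside them. HER2 late against early kept a count of 3, or one within 1.5 times it, and IM over AM likewise with 24. Moves to a count within 1.5 times the first one are not listed. The cause of the listed moves was not tested. Of the log2 ratios, 582 stayed within the counting interval and 79 did not; ratios over AM cells could not be computed where subtracting free RNA or leaving out the richest cells left AM cells with no UMI. The lowest and highest were -2.36 and -1.87 for Ccl8 in HER2 against wildtype late, -2.05 and -0.96 for Ccl24 in HER2 late against early, and -0.54 and 0.79 for Ccl12 in HER2 against wildtype early. Free RNA was estimated from 5 epithelial and red cell genes chosen after seeing the data. No paired analysis was possible because each group is 1 library, and for the same reason no replicate could be left out.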
